A study of Homo sapiens with 4 samples.

Results

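The adhesion receptors of THP1 cells were examined on day 2 after transfection with a miR-511 mimic. The set comprised 37 genes of 27193 gene names on the array: the integrin alpha and beta subunits, the ICAM family, SELE and SELP, the selectin ligand SELPLG, PECAM1, VCAM1 and CD44. A member was every non-control probe that carried one of these gene names, which gave 47 of 34127 probes. THP1 is an established human monoblastic cell line that carries the leukemic MLL-AF9 fusion. Cells were transfected once with 30 nM of a precursor molecule for hsa-miR-511-5p or of negative control #1, and then kept for the remaining time in DMEM/Ham's F12 with albumin and little serum. Both treatments were run in 2 independent experiments, so that 2 arrays of miR-511 mimic stood against 2 arrays of control mimic. All cells of both groups therefore came from 1 line and had been transfected with a small RNA, and no untransfected cells were included.

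Integrins are paired receptors of an alpha and a beta subunit, and the pair determines the ligand. The beta 2 integrins are restricted to leukocytes: ITGB2 pairs with ITGAL, ITGAM, ITGAX or ITGAD and binds ICAM proteins, complement fragments and fibrinogen, which lets monocytes stop on activated endothelium. Selectins and their ligand SELPLG serve the preceding rolling step, PECAM1 serves the passage between endothelial cells, and CD44 binds hyaluronan. A miRNA pairs through its seed, bases 2 to 8, with complementary sites in transcripts and lowers their level or translation.

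The transfected miRNA is shown first, with its seed in capitals, since the whole comparison turns on it (RefSeq, GRCh38.p14, chr10:17845122-17845142, plus strand).
hsa-miR-511-5p: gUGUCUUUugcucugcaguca
The letters complementary to the seed, AAAGACA, were searched on the strand of the probes and occurred in 331 of 34127 probes (0.97%) and in 0 of the 47 member probes. The same letters read on the opposite strand, TGTCTTT, occurred in 332 probes (0.973%), among them 1 member probe, of SELPLG. The 60 bases of a probe are a small part of a transcript, and the rest of each transcript was not searched.

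For the probes on which the results turn, the first 30 of 60 bases are given on the strand of the gene, in lower case throughout as no base is marked. They identify what was measured for the called gene ITGB5, for ITGB3, whose call depended on the model, for SELP, detected in 1 treatment, for both parts of ITGB2, and for ICAM1, the main ligand of the beta 2 integrins.
ITGB5: tacagaaagcctatctccacgcacactgtg
ITGB3: atgtgtggacacattggacctttcctgagg
SELP: ataggtctgataatgggtgggacgctcctg
ITGB2, brighter probe: gccaatttatttacatttaaacttgtcagg
ITGB2, dimmer probe: tgtccccacaaaaagtgacgctttacctgc
ICAM1: gaaatactgaaacttgctgcctattgggta
In hg19, the build of the files, the whole ITGB5 probe lies at chr3:124482491-124482550 on the minus strand and the ITGB3 probe at chr17:45389027-45389086 on the plus strand. The SELP probe lies at chr1:169562844-169562903 on the minus strand, the brighter ITGB2 probe at chr21:46305926-46305985 on the minus strand, and the ICAM1 probe at chr19:10396298-10396358 on the plus strand. The dimmer ITGB2 probe is given as chr21:46321625-46326865 on the minus strand, a span longer than the probe, so its bases come from more than 1 block of the genome. Exon and UTR annotation of this build was not used here.

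Per array, 64.8% to 69.3% of probes were well above background, the scanner software's call that a spot exceeds its local background, and 0 spots were saturated. Levels are normalized log2 values, that is log2 of the processed fluorescence intensity after quantile normalization, and differences are miR-511 mimic minus control mimic on that scale. The number of arrays limits the precision: with 2 against 2, an exact permutation test cannot go below p = 0.333, so p-values come from limma, fitted on the 22638 probes with signal well above background for at least 1 treatment, on both of its arrays. A call is an unadjusted p below 0.05. Over all tested probes 2.20% were called (1.27% higher and 0.932% lower with miR-511 mimic), and 0 were past Benjamini-Hochberg adjustment, with a smallest adjusted p in limma of 0.79. In such bulk samples, fewer cells with a transcript and less of it per cell cannot be told apart. All 7 monocytic marker genes with a probe (CD14, CD33, SPI1, CSF1R, MPO, CD68 and CEBPA) were well above background on all 4 arrays, with summed intensities of 65212 to 75319 in experiment 1 and 74813 to 76859 in experiment 2. Of other cell types, 3 of 5 lymphoid, 4 of 5 erythroid and megakaryocytic, and 1 of 6 endothelial and stromal markers were above background on all 4 arrays, with summed intensities of 1558 to 1959, 2039 to 2988 and 57.5 to 89.4. KDR, TEK, COL1A2 and EPCAM were above background on none, DCN on 1 array, and CDH5 on all 4 (difference 0.36, SE 0.15). CDH5 was not called, but was called higher with miR-511 mimic with the experiment as a block (SE 0.097). The part of other cells in the results was not tested.

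THP1 cells carried transcripts of beta 2 integrins, of ITGA4 and ITGB1, and of SELPLG, PECAM1 and CD44. By their brightest probe, 25 of 37 genes were well above background on all 4 arrays. Counted by probe, these were 31 of 47 member probes, against 21609 of 34127 probes of the whole array. ITGAD exceeded background on 1 array, of miR-511 mimic in experiment 2, and SELP on 2 arrays, both of control mimic. The remaining 10 genes exceeded background on none. These were ITGA8, ITGA3, ITGA6, ITGA1 and ITGA2, which form receptors for matrix proteins, ITGB6 and ITGB8, which pair with ITGAV, and ICAM1, SELE and VCAM1, which activated endothelium displays to leukocytes.

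**Figure D1:**
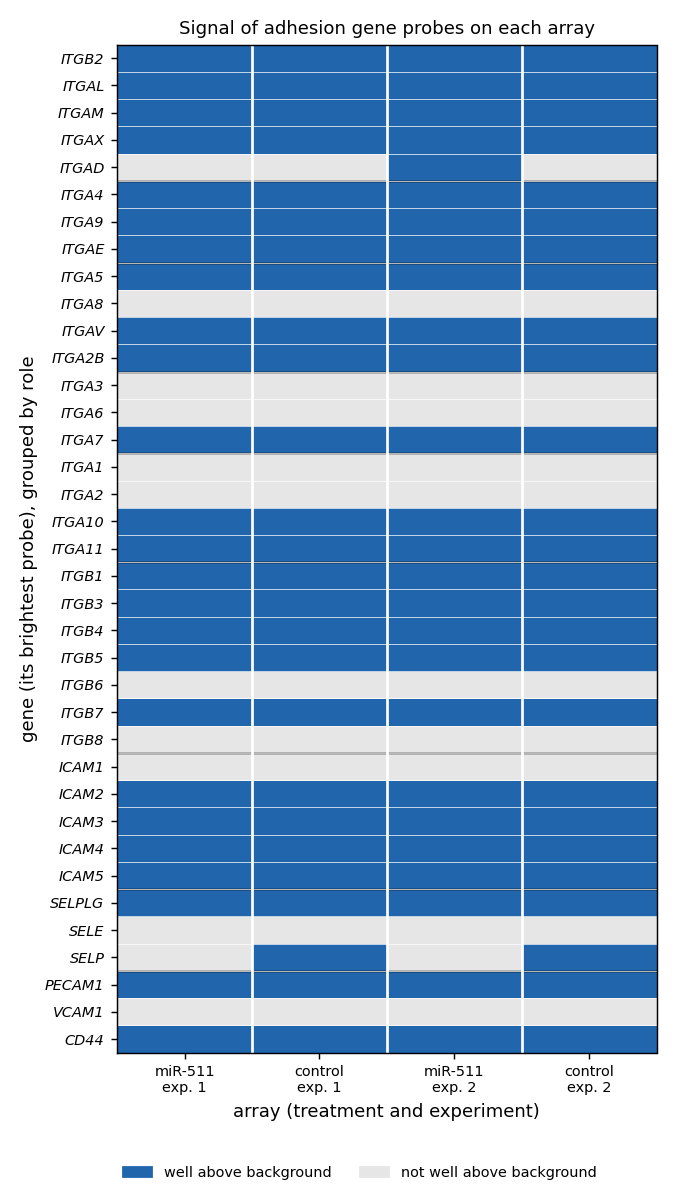
Detection of the 37 adhesion genes by their brightest probe (rows, grouped by role) on each of the 4 arrays (columns); blue marks a probe well above background and grey one that was not. The 25 genes detected on all 4 arrays fill whole rows, ITGAD is blue on 1 array and SELP on both control arrays.

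ICAM1 was close to the limit of detection. It was printed 10 times on each array, and 10% of these spots were above background with miR-511 mimic in experiment 1, 30% with control mimic in experiment 1, 0% with miR-511 mimic in experiment 2 and 10% with control mimic in experiment 2. No level was therefore given for ICAM1, nor for the other 9 undetected genes.

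Of the 47 member probes, 32 probes of 26 genes were tested. One of these, SELP, passed only through its control arrays, so the counts and medians are given for the other 31 probes, of the 25 genes with signal on all 4 arrays. A single gene, ITGB5, was called, lower with miR-511 mimic: 1 of 31 probes (3.23%) against 2.20% of all tested probes. Among the 21609 probes well above background on all 4 arrays, fitted alone, 1.82% were called. No member was past adjustment (smallest adjusted p in limma with Benjamini-Hochberg 1.00). The 25 genes had a median log2 difference of -0.0072 against 0.01 over all tested probes, and a median size of 0.10 against 0.08. In experiment 1 their median was -0.02 and in experiment 2 it was 0.01. The difference had the same sign in both experiments for 14 of 25 genes, 7 higher and 7 lower, whereas 51% of all tested probes kept their sign. The values ranged from -0.49 for ITGB5 to 0.34 for ITGB3.

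**Figure D2:**
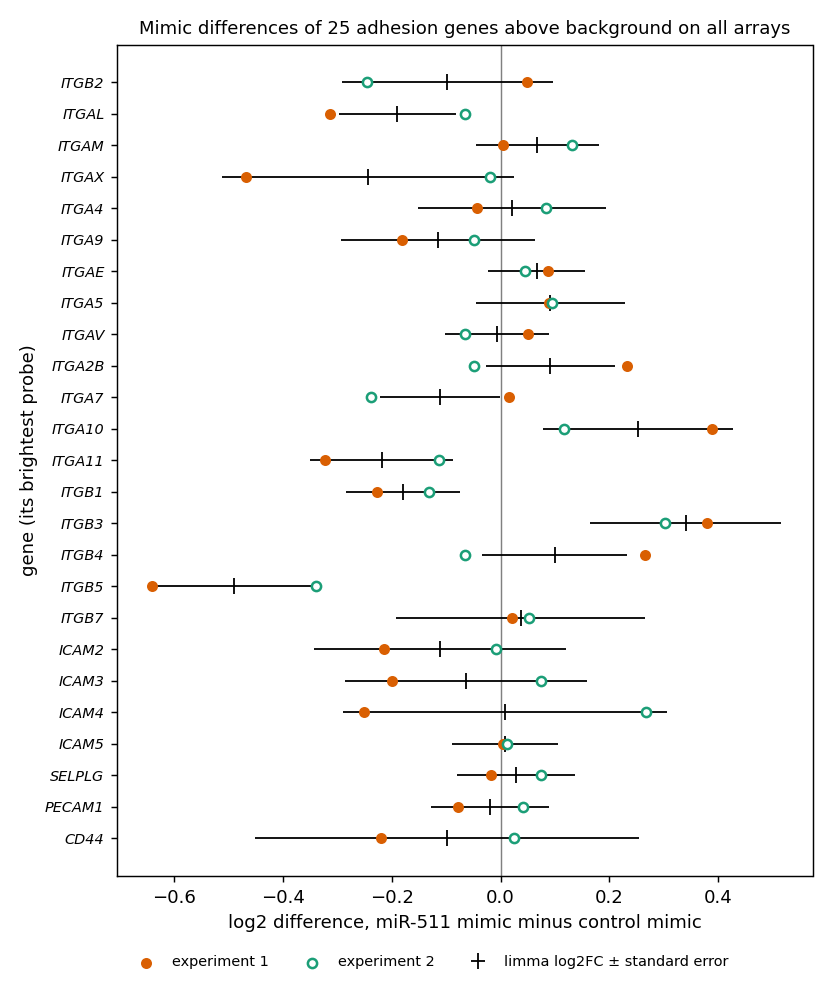
Log2 difference between miR-511 and control mimic for the brightest probe of the 25 adhesion genes above background on all 4 arrays, with experiment 1 as filled and experiment 2 as open circles and the limma log2 difference ± standard error (2 arrays per treatment) as black bars. Most genes lie close to 0, and ITGB5 (-0.49) and ITGB3 (0.34) lie farthest out on either side.

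Of the 5 beta 2 integrin genes, 4 were well above background on all 4 arrays and were tested, and 0 of these 4 genes were called. Their median difference was -0.14, with 1 of 4 above 0. ITGB2, the common beta subunit, gave 14.09 and 13.63 with miR-511 mimic and 14.04 and 13.87 with control mimic (experiments 1 and 2) on its brighter probe. The arrays of the treatments overlapped, and the difference was 0.05 in experiment 1 and -0.24 in experiment 2. Over both it was -0.10 (SE 0.19, 95% interval -0.63 to 0.43). This probe was printed 10 times, with an SD between its spots of 0.028 to 0.13 per array, which covers technical scatter within an array and not the variation between transfections. The dimmer ITGB2 probe gave 10.18 and 10.20 with miR-511 mimic and 10.37 and 10.46 with control mimic. Here the groups did not overlap, which is the most extreme order of 2 against 2 arrays, with an exact permutation p of 0.333. The share of all tested probes without overlap was not counted. The difference of -0.23 (SE 0.094, 95% interval -0.48 to 0.03) missed the threshold. It was past the threshold with normexp background correction (-0.24), with an intensity trend in the variance model and with a plain equal-variance test between the arrays, but after adjustment under none of them.

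Among the alpha subunits, ITGAL, the LFA-1 subunit, gave 9.07 and 9.18 with miR-511 mimic and 9.39 and 9.25 with control mimic. Its differences were -0.31 and -0.07 in the experiments (log2 difference -0.19, SE 0.11, 95% interval -0.48 to 0.10), and the groups did not overlap. ITGAM, the Mac-1 subunit and a marker of monocytic maturation, gave 7.47 and 7.41 with miR-511 mimic and 7.47 and 7.28 with control mimic. Its difference was 0.07 (SE 0.11, 95% interval -0.24 to 0.38). ITGAX, the subunit that monocytes and dendritic cells carry, gave 8.48 and 8.24 with miR-511 mimic and 8.94 and 8.26 with control mimic. Its difference was -0.47 in experiment 1 and -0.02 in experiment 2. Together they gave -0.24 (SE 0.27, 95% interval -0.98 to 0.49), and the control arrays decided this value. Without the control array of experiment 2 ITGAX stood at -0.59, and without that of experiment 1 it stood at 0.10. ITGAD, the least common partner, had levels of 3.54 and 4.08 with miR-511 mimic and 3.18 and 3.63 with control mimic on its brightest probe, above background only for 4.08, and was not tested. Its other probe held the software's surrogate for spots too low to measure on all 4 arrays.

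**Figure D3:**
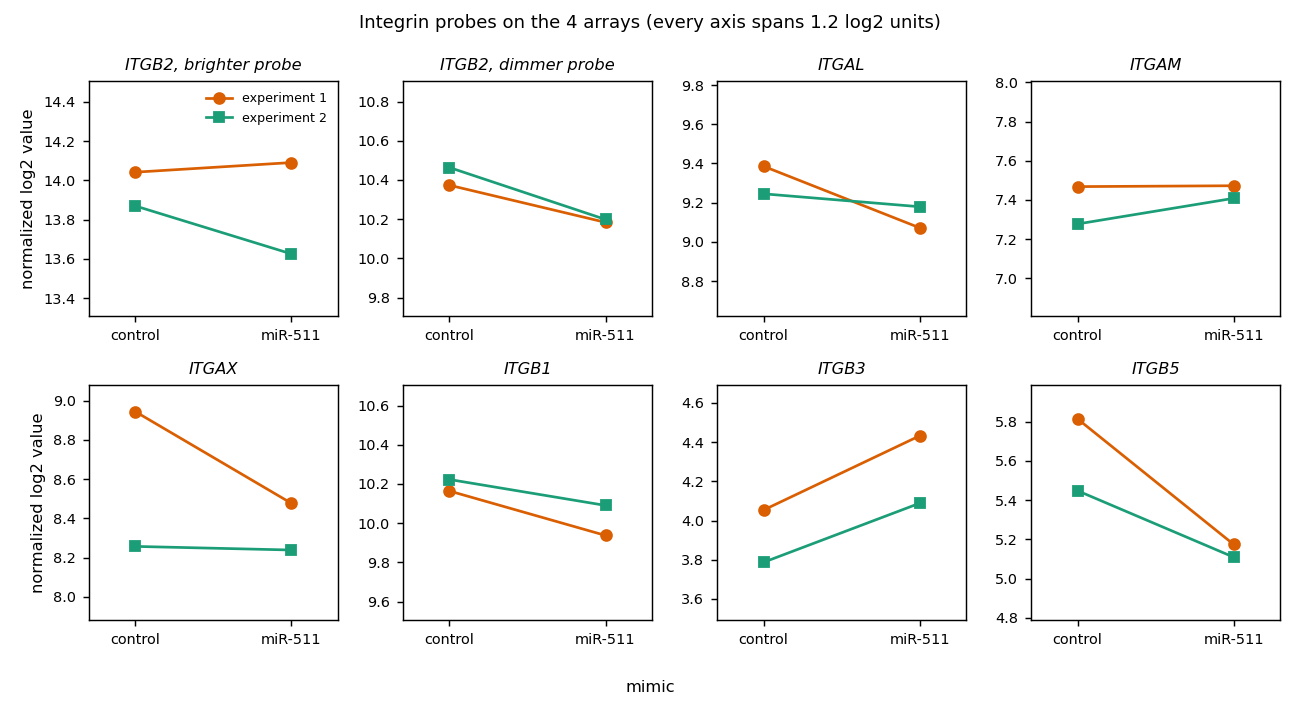
Normalized log2 values of 8 integrin probes with control and miR-511 mimic; each line joins the arrays of one experiment, and every panel spans the same range of log2 units around its own mean. The lines of ITGB5, ITGAL, ITGB1, ITGAX and the dimmer ITGB2 probe slope downward in both experiments, and those of ITGB3 and ITGAM upward in both. ITGAX is nearly level in experiment 2 and ITGAM in experiment 1. The lines of the brighter ITGB2 probe run in opposite directions.

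ITGB5 pairs with ITGAV in a vitronectin receptor. Its levels were 5.17 and 5.11 with miR-511 mimic and 5.81 and 5.45 with control mimic, and the groups did not overlap. These are dim signals, with processed intensities of 31.3 and 37.4 against 61.2 and 42.9. The log2 difference was -0.64 in experiment 1 and -0.34 in experiment 2. Means of 5.14 ± 0.046 and 5.63 ± 0.26 (SD, n = 2 each) differed by -0.49 (SE 0.16, 95% interval -0.92 to -0.06), a ratio of 0.712. This was past the unadjusted threshold in limma and not past Benjamini-Hochberg adjustment (adjusted p = 1.00). With the experiment as a block ITGB5 was called as well. The call was lost with normexp correction (-0.20), without the filter on dim probes, with the intensity trend, with the plain equal-variance test, and without either array of miR-511 mimic (-0.52 and -0.46) or the control array of experiment 1 (-0.31), all in the direction of a lower level. Its partner ITGAV, shared with the other vitronectin and fibronectin receptors, gave 11.45 and 11.44 with miR-511 mimic and 11.40 and 11.50 with control mimic, a difference of -0.01 (SE 0.096, 95% interval -0.27 to 0.25).

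ITGB3, the beta subunit of the platelet fibrinogen receptor and of a further vitronectin receptor, gave 4.43 and 4.09 with miR-511 mimic and 4.05 and 3.79 with control mimic. Its difference was 0.38 and 0.30 in the experiments, and the groups did not overlap. The log2 difference was 0.34 (SE 0.17, 95% interval -0.14 to 0.82), and it was called only with the experiment as a block (SE 0.080). The level is near background, and the value depended on how background was treated: with normexp correction it was 0.06 (SE 0.092). Leaving out 1 array at a time gave 0.17 to 0.51, the lowest without miR-511 mimic of experiment 1 and the highest without miR-511 mimic of experiment 2. ITGA2B, its platelet partner, gave 4.95 and 4.74 against 4.72 and 4.78, with opposite signs in the experiments and a difference of 0.09 (SE 0.12). ITGB1, the partner of most matrix-binding alpha subunits, gave 9.94 and 10.09 with miR-511 mimic and 10.16 and 10.22 with control mimic. The groups did not overlap, and the difference of -0.18 (SE 0.10, 95% interval -0.47 to 0.11) was not called. ITGB4, known as a partner of ITGA6 in epithelia, gave 7.09 and 6.81 against 6.82 and 6.87 (0.10, SE 0.13). ITGB7, the subunit of lymphocyte homing receptors, gave 9.38 and 8.97 against 9.36 and 8.92 (0.04, SE 0.23), with more distance between the experiments than between the mimics.

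None of the alpha subunits outside the beta 2 group was called. ITGA4, which with ITGB1 binds VCAM1, was measured by 3 probes above background on all 4 arrays. The brightest gave 11.23 and 11.002 with miR-511 mimic and 11.28 and 10.92 with control mimic (0.02, SE 0.17), and the others differed by -0.05 (SE 0.094) and 0.07 (SE 0.12). ITGA5, the fibronectin receptor subunit, gave 11.46 and 11.25 against 11.37 and 11.16, which is 0.09 in each experiment (SE 0.14, 95% interval -0.28 to 0.47). In this gene the distance between the experiments exceeded that between the mimics. ITGAE, the partner of ITGB7 on intraepithelial lymphocytes, gave 10.24 and 10.19 against 10.15 and 10.15, without overlap (0.07, SE 0.090). ITGA9, a receptor subunit for tenascin and VCAM1, gave 7.23 and 6.98 against 7.41 and 7.03 (-0.11, SE 0.18). ITGA7, a laminin receptor subunit, gave 12.31 and 12.13 against 12.29 and 12.37 (-0.11, SE 0.11). The differences of ITGA9 kept their sign in both experiments and those of ITGA7 did not. The collagen receptor subunits ran in opposite directions. ITGA10 gave 5.69 and 5.28 against 5.30 and 5.16 (0.25, SE 0.17), and ITGA11 gave 6.12 and 6.39 against 6.44 and 6.51, without overlap (-0.22, SE 0.13). With normexp correction these were 0.09 and -0.13. ITGA10 stood at 0.46 without the miR-511 array of experiment 2.

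Of the ICAM family, 4 of 5 genes were tested and 0 were called, with a median of -0.03. ICAM2 and ICAM3, ligands of the beta 2 integrins that leukocytes carry without activation, were clearly present. ICAM2 gave 10.24 and 9.92 with miR-511 mimic and 10.46 and 9.93 with control mimic (-0.11, SE 0.23, 95% interval -0.75 to 0.52). ICAM3 gave 11.76 and 11.50 against 11.96 and 11.43 (-0.06, SE 0.22, 95% interval -0.67 to 0.55). Both lay farther apart between the experiments than between the mimics. ICAM4, known as a red cell antigen, gave 7.07 and 6.81 against 7.32 and 6.54, with differences of -0.25 and 0.27 that cancelled in the mean (0.01, SE 0.30). ICAM5, a neuronal member, was a dim probe printed 10 times that gave 5.01 and 4.93 against 5.01 and 4.92 (0.01, SE 0.097), with an SD between spots of 0.21 to 0.35.

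SELPLG, the ligand through which leukocytes roll on P-selectin, had a brighter probe at 11.07 and 10.996 with miR-511 mimic and 11.09 and 10.92 with control mimic. The difference was 0.03 (SE 0.11, 95% interval -0.27 to 0.32), and its dimmer probe gave -0.02 (SE 0.10). SELP, P-selectin itself, is a protein of platelets and endothelium. It gave 3.22 and 3.67 with miR-511 mimic and 3.47 and 3.96 with control mimic, and only the control values were above background. The measured means were 3.45 and 3.72, and the arrays of the treatments overlapped (log2 difference -0.27, SE 0.25, 95% interval -0.94 to 0.40). SELP passed the filter only through its control arrays, so the direction of this difference is not free of the filter. A further SELP probe was too low to measure on all 4 arrays. PECAM1 was measured by 3 probes, and the brightest gave 11.71 and 11.66 against 11.79 and 11.62 (-0.02, SE 0.11, 95% interval -0.31 to 0.28). The other PECAM1 probes differed by 0.07 (SE 0.13) and 0.02 (SE 0.11). CD44 gave 9.38 and 8.82 with miR-511 mimic and 9.60 and 8.80 with control mimic (-0.10, SE 0.35, 95% interval -1.06 to 0.87), the widest interval among the 25 genes, and its levels in the experiments lay far apart.

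The largest differences among the adhesion genes lay between the 2 experiments, in a comparison added after these values were seen. Of the 25 genes with signal on all 4 arrays, 18 (72.0%) were lower in experiment 2 with both mimics and 2 were higher with both, against 34.0% and 28.6% of all tested probes. The genes are counted by their brightest probe, whereas all tested probes include dimmer ones. Further probes of ITGB2 (0.05), ITGA4 (0.06) and SELPLG (0.08) were higher in experiment 2 with both mimics. Others of ITGA4 (-0.16) and PECAM1 (-0.20) were lower with both, and the last PECAM1 probe (-0.03) differed in sign between mimics. For 17 of 25 (68.0%) the difference between experiments exceeded that between mimics in size, close to the 62.0% of all tested probes. With the treatment as a term, 7 of 31 probes (22.6%) were called, all lower in experiment 2, against 11.6% of all tested probes called (6.77% lower and 4.78% higher). The median of the genes was -0.21 against -0.01 over all tested probes, and after adjustment 0 members were called (smallest adjusted p in limma 0.388), nor was any probe of the array. CD44 fell by 0.56 with miR-511 mimic and by 0.81 with control mimic, a log2 difference of -0.68 (SE 0.10), that is 1.61-fold lower in experiment 2. ITGB7 (-0.43, SE 0.078), ICAM2 (-0.42, SE 0.097) and ICAM3 (-0.39, SE 0.11) followed, and ITGA9 (-0.31), ITGB3 (-0.31) and ITGA4 (-0.29) completed the lower ones. The brightest ITGA4 probe carried that call, whereas its other probes gave 0.06 and -0.16 and were not called. ICAM4 (-0.52) and ITGAX (-0.46) were as far from 0 but missed the threshold, with standard errors of 0.17 and 0.15. Lower calls numbered 8 with 75th percentile scaling, 9 with normexp correction and 7 in the deposited table. The share of all tested probes called under these settings was not counted. With 1 array per mimic and experiment, what differed between the experiments was not tested.

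**Figure D4:**
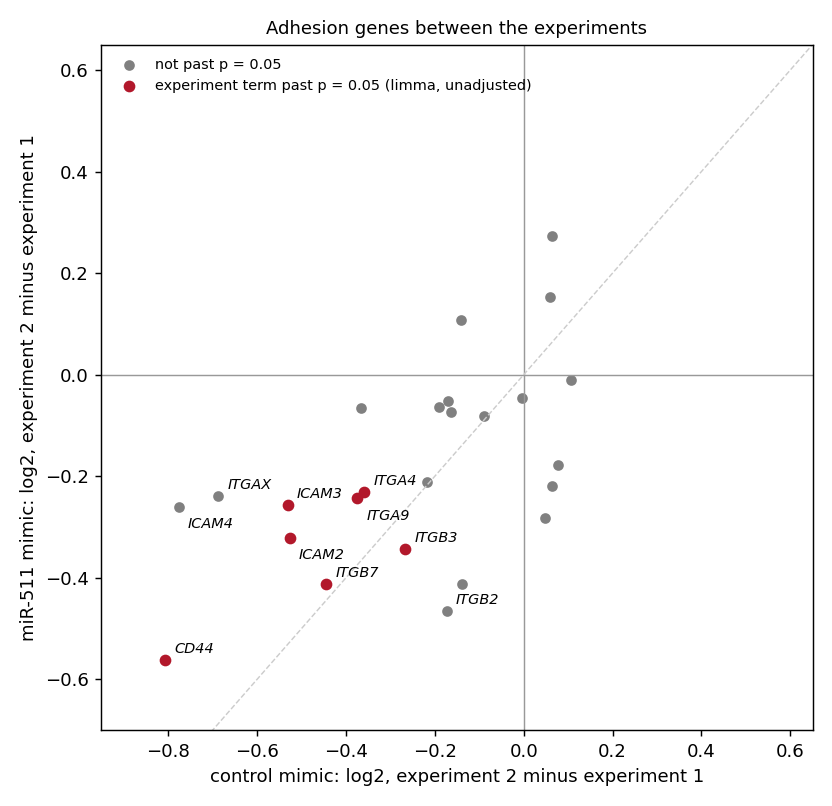
Experiment 2 minus experiment 1 in normalized log2 values with control mimic (horizontal) and miR-511 mimic (vertical) for the brightest probe of each of the 25 adhesion genes above background on all 4 arrays; red points were past an unadjusted p of 0.05 in limma and the dashed line marks equal differences. Of the genes, 18 lie in the lower left quadrant, with CD44 at -0.81 and -0.56.

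The proteins that link integrins to the cytoskeleton and switch them on were represented by a list of 35 genes. Of these, 31 were well above background on all 4 arrays and 0 were called (median difference 0.03, 20 of 31 above 0). Over all tested probes 2.20% were called and the median was 0.01, and the share above 0 was not counted. FERMT2, SKAP1, PARVA and PTK2 were not above background. The 5 genes with the brightest probes were RASGRP2, an exchange factor for RAP1 (0.12, SE 0.18, and -0.04 and -0.05 on its dimmer probes), the RAP1 proteins RAP1B (0.19, SE 0.092) and RAP1A (-0.03, SE 0.088), which activate integrins, and the actin linkers ACTN1 (0.01, SE 0.12) and FLNA (-0.18, SE 0.18). RAP1B gave 13.89 and 13.96 with miR-511 mimic and 13.72 and 13.75 with control mimic, without overlap, and was past the threshold only in the plain equal-variance test. The arrays of RAP1A did not overlap either, with the lower values in miR-511 mimic. The brightest FLNA probe gave 0.15 in experiment 1 and -0.51 in experiment 2, and a dimmer FLNA probe ran the other way, with -0.41 and 0.68.

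Of 27 other ligands and adhesion receptors, 13 were well above background on all 4 arrays. Of these, 0 were called (median 0.03, 10 of 13 above 0), against 2.20% called and a median of 0.01 over all tested probes. The 5 genes with the brightest probes were F11R, a junctional ligand of ITGAL (0.00, SE 0.10), HMMR, a hyaluronan receptor (0.16, SE 0.10), CD47, an integrin-associated protein (0.02, SE 0.16), CD99, used in transendothelial passage (-0.0013, SE 0.11), and the laminin chain LAMC1 (0.10, SE 0.17). All these differences were within 2 standard errors of 0, and only the arrays of HMMR did not overlap.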

How the data were processed

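RNA of the 4 samples was labeled with 1 dye and hybridized by the authors to whole genome microarrays (Agilent), with 1 array per sample and all arrays on 1 slide. The deposited scanner files, made with Agilent Feature Extraction (10.5.1.1 per the labels), give the processed intensity of each spot, less its local background and corrected for trends across the array, with a surrogate for low spots. The authors also deposited a table of normalized log2 values, used only as an alternative.

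In R 4.3.3, log2 of the processed intensity of 43118 non-control spots was quantile normalized over the arrays. Between 232 and 301 spots per array that the software marked as outliers were left out, and spots of 1 probe were averaged. Where 1 probe was printed 10 times, it needed more than 50% of its spots well above background. An unadjusted p below 0.05, the threshold in the study's methods, was a call. Treatments were compared with limma 3.58.1 (lmFit and eBayes, two-sided, 4.14 total degrees of freedom) on 22638 probes (66.3%), with p-values adjusted over all of them. Where a gene was above background on none of the arrays, no difference is given. Functions were tested on simulated data.

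All 37 genes were named with their detection, and values were given for the brightest probe of detected or called genes and for further detected probes; in the lists of 35 and 27 further genes, the called and the 5 brightest were named. The members, the lists and the tests were chosen with earlier results of these data known. Gene names are those of the files: 45 of the 47 member probes matched RefSeq (GRCh38.p14) by accession, all with the same symbol. The marker LYZ had no probe under that name.

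The labels number the experiments, which pairs the arrays (correlation of deviations from the treatment means for equal numbers 0.271). The experiment as a block, scaling to the 75th percentile, normexp on mean and background intensities (offset 50), other filters, marked spots kept, the deposited table, an intensity trend, a plain equal-variance test and leaving out each array were alternatives. The slide could not serve as a block, since only 1 was used.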

Additional observations from a re-analysis of the deposited data

How the results depend on the processing

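No member passed adjustment under any setting run. Of 287 comparisons of the 32 member probes with 9 settings other than leaving out an array, 270 kept the sign and the side of the threshold. With the experiment as a replicate block 3 member probes were called in place of 1, or 2 (ITGB5 and ITGB3) without SELP, which was above background with control mimic only, and 894 in place of 498 of all probes; it changed no other member's call. Without the filter on dim probes 0 members were called, and 1 of the other ligands and receptors (CD34, 1.97), against 3.02% of all 34083 probes then tested. The plain equal-variance test called 1 adhesion complex gene (RAP1B, 0.19), against 3.13% of all tested probes. In the comparison of the experiments, SELP was the 1 member called higher in experiment 2, with both miR-511 arrays below background, and with normexp correction there were 0. The causes were not tested, except that fewer arrays remain when 1 is left out.

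Signs turned near 0 with 75th percentile scaling for ICAM5 (-0.015) and ITGAV (0.0058). With normexp correction they turned for ICAM5 (-0.0071), ITGAV (0.00057), ITGA4 (-0.0095), ICAM4 (-0.016), a further probe of PECAM1 (-0.027) and the further probe of SELPLG (0.019).

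Leaving out 1 array at a time left 1 array in a treatment, so calls are not counted here and log2 differences are given. ITGB5 ran from -0.67 to -0.31 and ITGA10 from 0.046 to 0.46. Of the other ligands and receptors, CD34 stood at 2.25 without miR-511 mimic of experiment 1. CD24 stood at 0.45 without control mimic of experiment 1, and JAM2 at -2.05 without control mimic of experiment 2. In these fits the lone array is assumed to vary like the other group. The median difference of the 26 tested genes, SELP included, ran from -0.127 to 0.0739, and the log2 differences whose sign turned ran as follows. Those of the beta 2 group were ITGB2 (-0.33 to 0.14), ITGAM (-0.028 to 0.16) and ITGAX (-0.59 to 0.10). Those of other integrins were ITGA4 (-0.16 to 0.20, and a further probe -0.012 to 0.15), ITGA9 (-0.30 to 0.072), ITGA5 (-0.017 to 0.20), ITGAV (-0.060 to 0.046), ITGA2B (-0.018 to 0.20), ITGB4 (-0.042 to 0.24) and ITGB7 (-0.19 to 0.26). Those of the other receptors and ligands were ICAM2 (-0.37 to 0.15), ICAM3 (-0.33 to 0.20), ICAM4 (-0.38 to 0.40), ICAM5 (-0.035 to 0.053), SELPLG (-0.054 to 0.11, and its further probe -0.10 to 0.056), PECAM1 (-0.10 to 0.066, and its further probes -0.066 to 0.10 and -0.039 to 0.17) and CD44 (-0.50 to 0.31). Signal over background limits what could be seen: 10 genes lay below it on all arrays, and among spots below it 52.1% to 60.8% per array held surrogate values.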
